A study of Mus musculus with 6 samples.

Results

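The glutathione transferase genes of the mouse heart are described here by 10 members, which were chosen by name: Gstm1, Gstm2, Gstm4, Gstm5 and Gstm7 of the mu class, Gsta4 of the alpha class, Gstp1 of the pi class, Gstt1 of the theta class, Gstz1 of the zeta class and Gstk1 of the kappa class. The choice was made with earlier results of these data known. Each member was found through its NCBI gene ID, and the 10 are among 18019 genes with a deposited value. All 10 passed the filter on low values (an average of 1 FPKM or more across libraries), as did 11422 genes in all. FPKM counts the sequenced fragments of a gene per kilobase of its length, scaled to the size of the library.

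RNA was sequenced from heart tissue of 3 VNS-TAC and 3 Ctrl-TAC samples, taken 8 weeks after TAC (transverse aortic constriction, surgery in which the aortic arch is narrowed so that the left ventricle pumps against a higher pressure). VNS-TAC mice carried rAAV-ChAT-hChR2[H134R]-GFP in the DVMN, the dorsal vagal motor nucleus of the brain stem. The virus encodes a light-gated channel (ChR2, with the substitution H134R) and a green fluorescent protein, and the promoter of ChAT, the enzyme that makes acetylcholine, restricts it to cholinergic cells, so that the vagal neurones leading to the heart could be driven by light. The VNS-TAC columns of the deposited table are named 10Hz, with no other detail of the stimulation, and the labels do not spell out VNS. Ctrl-TAC mice carried rAAV-ChAT-GFP, without the channel. Mice of both groups were labelled WT and both had TAC, so no value below separates TAC from an unoperated heart. No source used here gives their strain, sex or age.

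The libraries held about 13940000 to 15840000 fragments, an estimate from the steps between low FPKM values. The 3 VNS-TAC libraries differed more among themselves than the controls, with a median SD over the genes tested of 0.25 in VNS-TAC and 0.11 in Ctrl-TAC on the log2(FPKM + 1) scale. VNS-TAC 1 and VNS-TAC 3 stood farthest from the controls, with a median absolute difference over genes of 0.27 and 0.28, against 0.16 for VNS-TAC 2 and 0.09 to 0.13 for each control against the other controls. Separate animals are not stated in the labels, and p-values therefore reflect only how far these libraries spread, part of which may be technical.

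Glutathione transferases join the tripeptide glutathione to reactive electrophiles, among them drugs, plant compounds and the aldehydes that form when membrane lipids are oxidised, and the conjugates are then exported from the cell. The mu, alpha, pi, theta and zeta enzymes are cytosolic relatives, whereas the kappa enzyme has another fold and lies in mitochondria and peroxisomes. Many of these genes are known to be switched on by the transcription factor NRF2 at antioxidant response elements, and in muscle and heart they are known for the removal of products of lipid peroxidation.

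The mu class genes are close copies that lie side by side on chromosome 3, which matters for how short reads are assigned to them. A stretch of 60 coding bases in which few positions differ is shown first for the 5 mu members, with capitals at each base that differs from Gstm1. It starts at coding position 203 in the other members and at 212 in Gstm5. Of its 60 positions, 15 differ among the 7 Gstm genes aligned.
Gstm1: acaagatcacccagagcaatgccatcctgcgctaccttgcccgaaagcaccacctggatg
Gstm2: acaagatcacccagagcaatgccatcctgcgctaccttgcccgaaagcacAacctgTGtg
Gstm4: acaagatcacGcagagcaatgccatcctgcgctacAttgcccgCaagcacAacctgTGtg
Gstm5: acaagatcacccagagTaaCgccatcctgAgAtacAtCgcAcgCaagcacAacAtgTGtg
Gstm7: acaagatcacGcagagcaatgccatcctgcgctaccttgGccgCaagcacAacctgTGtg

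The stretch with the most differences shows the other extreme, where reads can be told apart. Among the 7 Gstm genes aligned, 41 of its 60 positions differ. This stretch starts at coding position 318, and at 327 in Gstm5. Capitals again mark bases that differ from Gstm1.
Gstm1: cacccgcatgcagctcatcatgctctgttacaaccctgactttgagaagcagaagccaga
Gstm2: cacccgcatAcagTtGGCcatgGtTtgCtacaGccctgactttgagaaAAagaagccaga
Gstm4: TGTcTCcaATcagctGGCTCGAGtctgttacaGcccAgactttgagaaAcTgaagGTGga
Gstm5: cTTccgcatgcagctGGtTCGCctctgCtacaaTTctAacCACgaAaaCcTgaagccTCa
Gstm7: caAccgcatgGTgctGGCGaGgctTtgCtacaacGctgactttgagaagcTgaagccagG

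In the first stretch Gstm2 differs from Gstm1 at 3 bases, Gstm4 and Gstm7 at 6 each and Gstm5 at 12. In the second, Gstm2 differs at 11, Gstm7 at 13, Gstm5 at 20 and Gstm4 at 22. Over the whole coding sequence Gstm1 was 85.9% identical to Gstm2, 82.6% to Gstm7, 80.1% to Gstm4 and 71.6% to Gstm5, which is the most distant of the 5. Gstm1 was closest to Gstm3, at 89.4%, a gene that was below the filter in these hearts. Gstp1 and its neighbour Gstp2 were 98.1% identical.

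**Figure D1:**
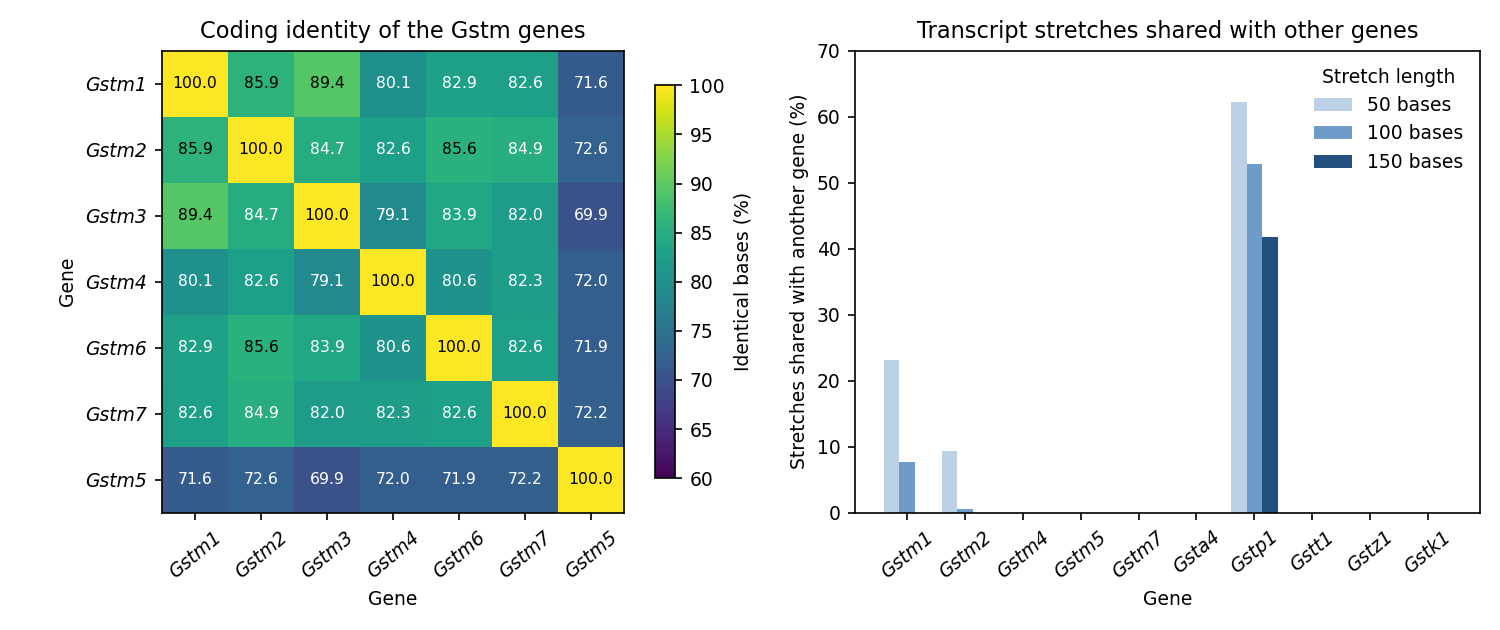
Left, percent of identical coding bases for each pair of the 7 Gstm genes, from 69.9% to 89.4%. Right, percent of the stretches of each member's GENCODE M21 transcript that another gene's transcript also holds letter for letter, for stretches of 50, 100 and 150 bases. Gstp1 shares 62.3% at 50 bases and 41.8% at 150 bases, Gstm1 shares 23.1% at 50 bases and 0% at 150 bases, Gstm2 shares 9.36% at 50 bases, and the other 7 members share none.

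The plot of shared stretches shows which values depend on how the authors' counting treated copies. Of all stretches of 50 bases, 62.3% of those in the Gstp1 transcript, 23.1% in Gstm1 and 9.36% in Gstm2 are found exactly in a transcript of another gene. At 100 bases the shares were 52.8% for Gstp1, 7.73% for Gstm1 and 0.622% for Gstm2. The other 7 members, among them Gstm4, Gstm5 and Gstm7, had no such stretch. No source used here gives the read length, so the FPKM of Gstp1, and to a lesser extent of Gstm1 and Gstm2, is uncertain by an amount that was not tested.

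The Gstm1 promoter is shown as the gene with the highest fold change among the members. The 250 bases before its outer start (RefSeq, GRCm38.p6, chr3:108017974-108018223, minus strand) hold a match, in capitals, to GCGTG. That is the core of the xenobiotic response element bound by the aryl hydrocarbon receptor. Gstm1 has annotated starts at 108017973 and 108017818, and the match begins at -76 from the outer and -231 from the inner start.
Gstm1 promoter: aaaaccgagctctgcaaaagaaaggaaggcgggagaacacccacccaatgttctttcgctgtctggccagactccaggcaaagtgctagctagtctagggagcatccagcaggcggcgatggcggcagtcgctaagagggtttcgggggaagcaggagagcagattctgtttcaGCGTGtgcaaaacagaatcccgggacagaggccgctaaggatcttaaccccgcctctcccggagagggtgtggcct
Matches to TGACNNNGC, the core of the antioxidant response element, lie before an annotated start of 2 mu members, and are shown with 10 bases on each side (Gstm5 at chr3:107895802-107895830, plus strand, and Gstm7 at chr3:107931725-107931753, minus strand), the match in capitals. Gstm7 has annotated starts at 107931817 and 107931614. Its match lies between them, so it is inside the gene and precedes only the inner start.
Gstm5: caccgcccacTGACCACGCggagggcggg
Gstm7: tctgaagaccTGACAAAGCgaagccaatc

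Both strands of the window from 250 bases before to 50 after each start were searched, in the 9 members with a window. TGACNNNGC was found in 2 of 9 members, against 14.0% of 27025 genes. GCGTG was found in 3 of 9 members (Gstm1, Gstm5 and Gstp1), against 35.2% of genes, and one of the Gstm5 matches overlaps its antioxidant match. Such a match describes the letters and is neither a binding site nor a cause. Of these 4 genes, Gstm1 and Gstm7 averaged 1.68 and 1.46 times as much in VNS-TAC as in Ctrl-TAC hearts, and Gstm5 and Gstp1 1.08 and 1.11 times as much.

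Glutathione transferase transcripts were, on average, more abundant in VNS-TAC than in Ctrl-TAC hearts for 9 of the 10 members. The largest differences were those of Gstm1 (1.68 times), Gstm2 (1.47 times), Gstm7 (1.46 times), Gstk1 (1.42 times) and Gsta4 (1.39 times). Gstm4 was 1.2 times as high, Gstp1, Gstm5 and Gstz1 were 1.06 to 1.11 times as high, and Gstt1 was lower on average, at 0.81 times the control level. No member passed the adjusted threshold of 0.05 (limma on log2(FPKM + 1), Benjamini-Hochberg adjustment over all 11422 genes), and neither did any other gene, so these remain differences short of that test.

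**Figure D2:**
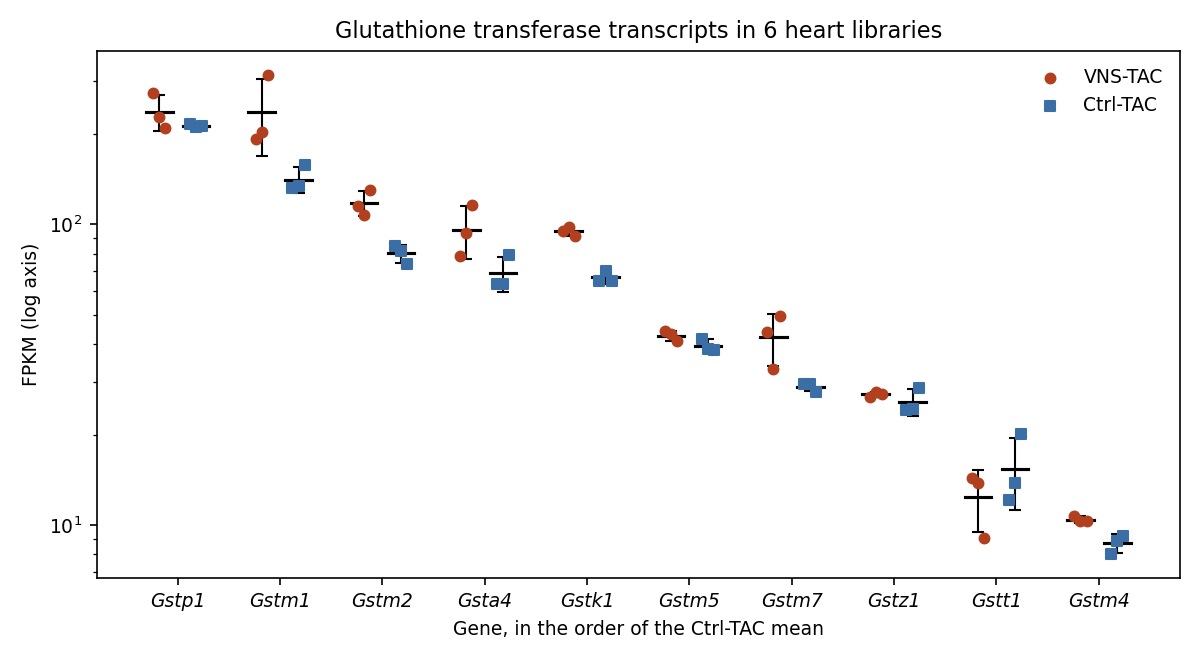
FPKM (log axis) of the 10 members, in the order of their Ctrl-TAC means, in the 3 VNS-TAC libraries (circles, left) and the 3 Ctrl-TAC libraries (squares, right), with lines at each group's mean and bars of 1 SD. All 3 VNS-TAC points lie above all 3 Ctrl-TAC points for Gstm1, Gstm2, Gstm4, Gstm7 and Gstk1, and the points overlap for the other members.

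Among the mu genes, Gstm1 (gene ID 14862, chr3:108012250-108017973, minus strand) encodes a major mu enzyme that acts on a broad range of electrophiles. It had 192, 203 and 314 FPKM in VNS-TAC libraries 1 to 3, against 132, 134 and 157 FPKM in Ctrl-TAC libraries 1 to 3. Every VNS-TAC library was above every Ctrl-TAC library, and VNS-TAC 3 was far above the other two. The means were 236 ± 67.7 FPKM in VNS-TAC and 141 ± 14.0 FPKM in Ctrl-TAC hearts (SD, n = 3 each). The log2 fold change was 0.71 ± 0.20 (SE; 95% interval 0.23 to 1.19), with an unadjusted p of 0.00931 and an adjusted p of 0.244 in limma. Without VNS-TAC 3 it was 0.49, with an unadjusted limma p of 0.00357.

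Gstm2 (gene ID 14863, chr3:107981702-107986420, minus strand), the mu form best known from muscle in humans, had 115, 108 and 129.6 FPKM in VNS-TAC, against 84.6, 81.8 and 73.9 FPKM in Ctrl-TAC libraries. The groups did not overlap, and no library stood far from its own group. The means were 117 ± 11.2 FPKM in VNS-TAC and 80.1 ± 5.53 FPKM in Ctrl-TAC hearts (SD, n = 3 each), a log2 fold change of 0.54 ± 0.12 (SE). The unadjusted p was 0.00286 and the adjusted p 0.203 in limma.

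Gstm7 (gene ID 68312, chr3:107926334-107931877, minus strand), another mu enzyme of the cluster, had 43.9, 33.1 and 49.5 FPKM in VNS-TAC, against 29.4, 29.5 and 27.7 FPKM in Ctrl-TAC libraries. The controls lay close together and the VNS-TAC libraries were spread, with VNS-TAC 2 the nearest to the controls. The means were 42.2 ± 8.35 FPKM in VNS-TAC and 28.9 ± 0.989 FPKM in Ctrl-TAC hearts (SD, n = 3 each). The log2 fold change was 0.51 ± 0.16 (SE), with an unadjusted p of 0.0144 and an adjusted p of 0.252 in limma.

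The other two mu members differed less. Gstm4 (gene ID 14865, chr3:108030571-108045179, minus strand) had 10.7, 10.3 and 10.3 FPKM in VNS-TAC, against 8.03, 8.83 and 9.24 FPKM in Ctrl-TAC libraries. These groups did not overlap, but the difference was small and the unadjusted limma p was 0.0755, with a log2 fold change of 0.24 ± 0.12 (SE). Gstm5 (gene ID 14866, chr3:107895854-107898685, plus strand), which lies on the opposite strand from the other 4, had 44.05, 43.1 and 40.9 FPKM in VNS-TAC, against 41.7, 38.6 and 38.1 FPKM in Ctrl-TAC libraries. These groups overlapped, and the log2 fold change of 0.11 ± 0.11 (SE; 95% interval -0.14 to 0.36) had an unadjusted limma p of 0.338.

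The 5 mu members summed to 406, 396 and 545 FPKM in VNS-TAC, against 296, 292 and 306 FPKM in Ctrl-TAC libraries. The means of the sum were 449 ± 82.8 FPKM in VNS-TAC and 298 ± 7.08 FPKM in Ctrl-TAC hearts (SD, n = 3 each), a ratio of 1.51. A sum is less touched than a single gene by how reads were divided among the copies summed. It does not recover reads given to copies outside it or left uncounted. Stretches of 50 bases in Gstm1 or Gstm2 are also held by Gm6665, Gm8834, Gstm2-ps1 and Gm12499. With Gstm3 and Gstm6 added, the means were 451 ± 82.5 FPKM in VNS-TAC and 301 ± 8.26 FPKM in Ctrl-TAC hearts (SD, n = 3 each), a ratio of 1.5. Without VNS-TAC 3 the log2 ratio of the 5-gene sum was 0.43, against 0.59 with all libraries.

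Gsta4 (gene ID 14860, chr9:78191966-78209349, plus strand) encodes the alpha enzyme best known for conjugating 4-hydroxynonenal, a reactive aldehyde from oxidised membrane lipids. It had 78.2, 93.5 and 116 FPKM in VNS-TAC, against 63.45, 63.4 and 79.3 FPKM in Ctrl-TAC libraries. The groups overlapped, because VNS-TAC 1 was just below Ctrl-TAC 3. The means were 95.8 ± 18.9 FPKM in VNS-TAC and 68.7 ± 9.17 FPKM in Ctrl-TAC hearts (SD, n = 3 each), and the log2 fold change of 0.46 ± 0.17 (SE) had an unadjusted p of 0.0311 and an adjusted p of 0.29 in limma. Without VNS-TAC 3 it was 0.32, with an unadjusted limma p of 0.0591.

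Gstk1 (gene ID 76263, chr6:42245935-42250441, plus strand) encodes the kappa enzyme of mitochondria and peroxisomes. It had 94.9, 97.7 and 91.6 FPKM in VNS-TAC, against 64.7, 70.05 and 65.0 FPKM in Ctrl-TAC libraries. The groups were far apart and each was tight, so that all 3 VNS-TAC libraries exceeded the controls by a like amount. The means were 94.7 ± 3.07 FPKM in VNS-TAC and 66.6 ± 3.01 FPKM in Ctrl-TAC hearts (SD, n = 3 each). The log2 fold change was 0.50 ± 0.11 (SE; 95% interval 0.25 to 0.75), with the smallest unadjusted p of the 10 members, 0.00188, and an adjusted p of 0.19 in limma.

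Gstp1 (gene ID 14870, chr19:4035411-4037912, minus strand) encodes the pi enzyme, which also binds and restrains the stress kinase JNK. It had 272, 228 and 209 FPKM in VNS-TAC, against 215, 210.5 and 212 FPKM in Ctrl-TAC libraries. VNS-TAC 1 stood clear of the controls, VNS-TAC 2 was a little above them, and VNS-TAC 3 was below all 3. The log2 fold change was 0.14 ± 0.13 (SE; 95% interval -0.17 to 0.46), with an unadjusted limma p of 0.326. Its copy Gstp2 had 13.3, 9.43 and 10.9 FPKM in VNS-TAC, against 17.6, 14.2 and 16.5 FPKM in Ctrl-TAC libraries. Gstp2 was thus lower in every VNS-TAC library, at 4.13 to 5.25% of the Gstp1 value, against 6.75 to 8.17% in Ctrl-TAC. How reads were divided between these copies was not tested. The sum of Gstp1, Gstp2 and Gstp3 was 248 ± 34.2 FPKM in VNS-TAC and 229 ± 4.19 FPKM in Ctrl-TAC hearts (SD, n = 3 each). Stretches of Gstp1 are also held by Gstp-ps, which is outside that sum.

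Gstz1 (gene ID 14874, chr12:87147161-87164723, plus strand) encodes the zeta enzyme, maleylacetoacetate isomerase, a late step of tyrosine breakdown. It had 26.7, 27.75 and 27.4 FPKM in VNS-TAC, against 24.1, 24.3 and 28.7 FPKM in Ctrl-TAC libraries. The groups overlapped, and the log2 fold change of 0.09 ± 0.12 (SE; 95% interval -0.19 to 0.36) had an unadjusted limma p of 0.485.

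Gstt1 (gene ID 14871, chr10:75783813-75798584, minus strand) encodes the theta enzyme, which acts on small halogenated compounds. It had 14.3, 13.8 and 9.05 FPKM in VNS-TAC, against 12.2, 13.9 and 20.1 FPKM in Ctrl-TAC libraries. One library in each group stood away from its group in opposite directions, and the other libraries lay together. The log2 fold change was -0.29 ± 0.23 (SE; 95% interval -0.83 to 0.26), with an unadjusted limma p of 0.258. It was -0.09 without VNS-TAC 3, -0.09 without Ctrl-TAC 3 and -0.05 with library weights.

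**Figure D3:**
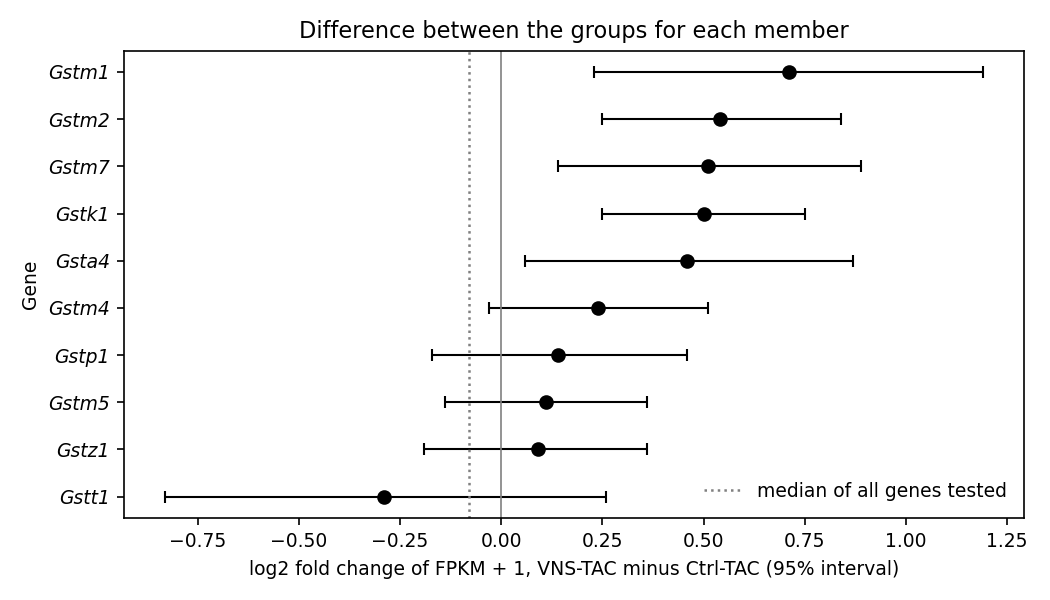
Log2 fold change of each member, VNS-TAC minus Ctrl-TAC on the log2(FPKM + 1) scale, with its 95% interval from limma and a dotted line at the median of all genes tested, -0.08. The intervals of Gstm1, Gstm2, Gstm7, Gsta4 and Gstk1 lie above 0, those of the other members include 0, and Gstt1 alone has a negative value, -0.29.

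Across the 10 members, 9 log2 fold changes were above 0 and their median was 0.35, whereas 38.2% of all genes tested were above 0 and the median over all genes was -0.08. In VNS-TAC hearts 5 members were higher at an unadjusted p under 0.05, against 3.79% of all genes tested, and 0 were lower, against 11.3%. The libraries of the groups did not overlap for 5 members that were higher, against 8.01% of all genes, and for 0 that were lower, against 17.4%. Because the members were chosen with earlier results of these data known, these counts and the median may reflect that choice. They are a description, with no test over the list. Past the adjusted threshold there were 0 members and 0% of all genes in limma, while 1719 genes had an unadjusted p under 0.05. With library weights in limma, 1016 genes and 4 members (Gstm1, Gstm2, Gsta4 and Gstk1) passed the adjusted threshold. The weights were 0.246 for VNS-TAC 1, 2.82 for VNS-TAC 2 and 0.247 for VNS-TAC 3, and 2.9, 1.88 and 1.07 for Ctrl-TAC 1 to 3. The VNS-TAC side of that fit thus rests mostly on VNS-TAC 2, the VNS-TAC library nearest to the controls. With the same weights the log2 fold change of Gstm7 was 0.25, against 0.51 with equal weights, and its adjusted limma p was 0.152.

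**Figure D4:**
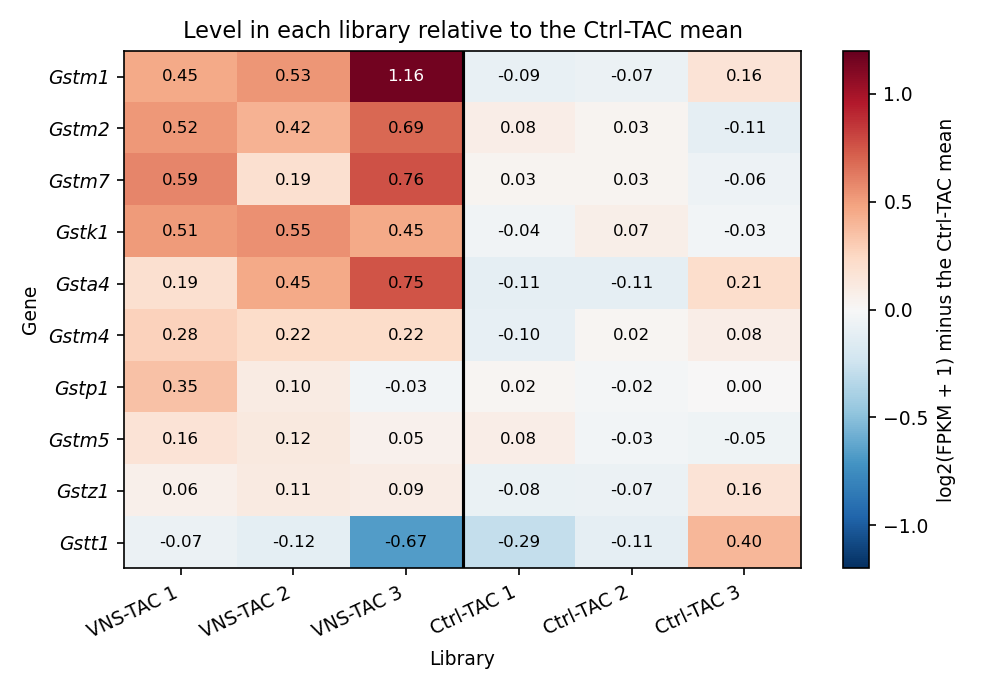
Each member in each library, as the log2(FPKM + 1) value minus the mean of the 3 Ctrl-TAC libraries. Gstk1 is at 0.45 to 0.55 in all 3 VNS-TAC libraries, Gstm1 is at 0.45, 0.53 and 1.16, and VNS-TAC 3 is the highest of the 3 for Gstm1, Gstm2, Gstm7 and Gsta4.

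The members did not all vary together among the VNS-TAC hearts. In the plot of members by library, VNS-TAC 3 was the highest of the 3 for Gstm1, Gstm2, Gstm7 and Gsta4 and the lowest for Gstp1, Gstt1, Gstm5 and Gstk1. For Gstm4, VNS-TAC 2 and VNS-TAC 3 were level. From the lowest to the highest VNS-TAC library, Gstm1 spanned 1.63-fold, Gstt1 1.58-fold, Gstm7 1.5-fold and Gsta4 1.48-fold. Gstk1 spanned only 1.07-fold and Gstm4 and Gstz1 1.04-fold each. In the controls Gstt1 spanned 1.65-fold.

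The make-up of the family therefore differed between libraries. Gstm1 was 21.5, 23.6 and 31.5% of the summed FPKM of the 10 members in VNS-TAC, against 19.5, 19.8 and 22.1% in Ctrl-TAC libraries. Gstp1 was 30.5, 26.6 and 20.9% of it in VNS-TAC, against 31.9, 31.2 and 29.9% in Ctrl-TAC libraries. Gstm1 exceeded Gstp1 only in VNS-TAC 3, where it had 1.51 times its FPKM, against 0.71 and 0.89 times in VNS-TAC 1 and 2 and 0.61 to 0.74 times in Ctrl-TAC. The summed FPKM of the 10 members was 916 ± 72.6 in VNS-TAC and 687 ± 21.1 in Ctrl-TAC hearts (SD, n = 3 each), a ratio of 1.33, and the groups did not overlap.

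By level, Gstp1 and Gstm1 were the leading transcripts in both groups. In VNS-TAC hearts they had the same mean, 236 FPKM each, with overlapping libraries. There followed Gstm2 (117 FPKM), Gsta4 (95.8 FPKM) and Gstk1 (94.7 FPKM), whose neighbours overlapped, then Gstm5 (42.7 FPKM) and Gstm7 (42.2 FPKM), which also overlapped, then Gstz1 (27.3 FPKM), and Gstt1 (12.4 FPKM) overlapping with Gstm4 (10.4 FPKM). In Ctrl-TAC hearts Gstp1 (213 FPKM) was above Gstm1 (141 FPKM) in every library, Gstm2, Gsta4 and Gstk1 had 80.1, 68.7 and 66.6 FPKM with overlapping neighbours, and Gstm5 (39.5 FPKM) stood above Gstm7 (28.9 FPKM), which overlapped with Gstz1 (25.7 FPKM). Gstt1 (15.4 FPKM) and Gstm4 (8.7 FPKM) were the lowest, without overlap.

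Genes with a pattern like that of Gstm1 over the 6 libraries were ranked by the root mean square difference of their centred log2(FPKM + 1) values, as a description. The nearest was Ppp1r13l, which encodes the p53 inhibitor iASPP, at 0.063, with 26.3, 24.9 and 43.6 FPKM in VNS-TAC, against 16.7, 16.1 and 19.8 FPKM in Ctrl-TAC libraries. Mt1, a metallothionein that binds zinc and copper, came next at 0.078, with 278, 339 and 534 FPKM in VNS-TAC, against 217, 220.4 and 247 FPKM in Ctrl-TAC libraries. Zdhhc4, a palmitoyltransferase, followed at 0.09, and a gene with no symbol in the tables used was at 0.093. Both leading genes were highest in VNS-TAC 3, as Gstm1 was. Among the members themselves Gsta4 was the nearest to Gstm1 at 0.158, Gstm2 and Gstm7 were nearest to each other at 0.106, as were Gstm5 and Gstp1 at 0.092 and Gstm4 and Gstz1 at 0.097. Gstk1 was nearest to Gstm2 at 0.123, and Gstt1 was the farthest from any other member, at 0.302 from Gstz1.

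Of the other glutathione transferases and related membrane enzymes, 18 of 32 listed genes were tested. In VNS-TAC hearts 2 of them were higher and 2 lower at an unadjusted p under 0.05, against 3.79% and 11.3% of all genes, and their median log2 fold change was -0.01, against -0.08 over all genes. Mgst3, a microsomal glutathione transferase with peroxidase activity, averaged 406 ± 60.6 FPKM in VNS-TAC and 306 ± 6.23 FPKM in Ctrl-TAC hearts (SD, n = 3 each; log2 fold change 0.39 ± 0.14, unadjusted limma p 0.0272). Its relative Mgst1 averaged 72.5 ± 21.9 FPKM in VNS-TAC and 49.0 ± 5.55 FPKM in Ctrl-TAC hearts (SD, n = 3 each; 0.52 ± 0.21, unadjusted limma p 0.044), with overlapping groups. The lower genes were Gstp2 (-0.49 ± 0.16, unadjusted limma p 0.0156) and Gstm6 (-0.55 ± 0.23, unadjusted limma p 0.0455). Gstm6 is a low transcript, at 1.56 ± 0.424 FPKM in VNS-TAC and 2.8 ± 1.11 FPKM in Ctrl-TAC hearts (SD, n = 3 each).

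**Figure D5:**
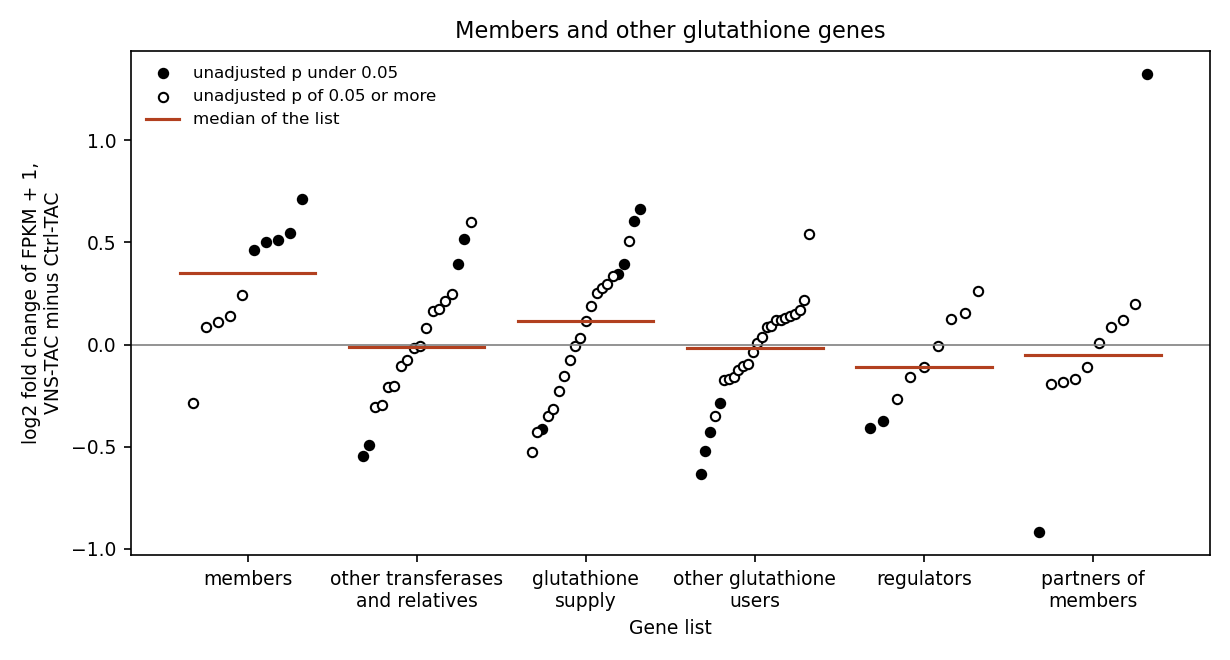
Log2 fold changes, VNS-TAC minus Ctrl-TAC, of the tested genes of the 10 members and of 5 other lists of the glutathione system, each point a gene (filled at an unadjusted p under 0.05) and each line the list's median. The members' median is 0.35, and those of the other lists lie between -0.11 and 0.12. Members and lists were chosen with earlier results of these data known, so the difference in medians may reflect that choice.

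For glutathione supply, 21 of 24 listed genes were tested, of which 4 were higher and 1 lower at an unadjusted p under 0.05 (3.79% and 11.3% of all genes), with a median of 0.12. The ligase of the first step of glutathione synthesis had overlapping groups in both subunits, with Gclc at 5.96 ± 1.87 FPKM in VNS-TAC and 6.57 ± 0.436 FPKM in Ctrl-TAC hearts (SD, n = 3 each), and Gclm at 8.97, 12.0 and 17.8 FPKM in VNS-TAC, against 9.87, 8.65 and 11.5 FPKM in Ctrl-TAC libraries (log2 fold change 0.30, 95% interval -0.26 to 0.85). Dpep1, a dipeptidase that splits cysteinylglycine from glutathione breakdown, averaged 46.0 ± 10.3 FPKM in VNS-TAC and 29.5 ± 1.89 FPKM in Ctrl-TAC hearts (SD, n = 3 each), with a log2 fold change of 0.60 ± 0.18 and an unadjusted limma p of 0.0114. Slc3a2, a subunit of the cystine importer, had 31.2, 36.01 and 65.6 FPKM in VNS-TAC, against 27.5, 26.0 and 25.1 FPKM in Ctrl-TAC libraries, and was highest in VNS-TAC 3 as Gstm1 was. Among genes linked to glutathione breakdown, Ggt5 was 1.41 times and Ggct 0.73 times the control mean (unadjusted limma p 0.0288 and 0.0158). Gsr, which recycles oxidised glutathione, averaged 9.61 ± 0.946 FPKM in VNS-TAC and 10.2 ± 0.38 FPKM in Ctrl-TAC hearts (SD, n = 3 each).

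Of the enzymes and exporters that use glutathione, 24 of 26 were tested, with 0 higher and 4 lower at an unadjusted p under 0.05 in limma, where 3.79% of all genes were higher and 11.3% lower, and their median was -0.02. The conjugate exporter gene Abcc5 averaged 9.99 ± 1.66 FPKM in VNS-TAC and 14.7 ± 0.994 FPKM in Ctrl-TAC hearts (SD, n = 3 each; -0.52 ± 0.15, unadjusted limma p 0.00922). Gpx8 of the endoplasmic reticulum and the glyoxalase gene Glo1 were at 0.73 and 0.82 times the control mean (unadjusted limma p 0.0359 and 0.0497). The glutathione peroxidases Gpx1, Gpx3 and Gpx4, which reduce peroxides with glutathione, were at 1.07, 1.51 and 1.09 times the control mean, with overlapping groups and unadjusted limma p of 0.584, 0.24 and 0.38.

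Of 12 listed factors that act at antioxidant or xenobiotic response elements, 9 were tested, with 0 higher and 2 lower at an unadjusted p under 0.05 and a median of -0.11. Over all genes 3.79% were higher and 11.3% lower, with a median of -0.08, so lower calls were common outside this list too. Nfe2l2, which encodes NRF2, had 26.0, 31.6 and 25.6 FPKM in VNS-TAC, against 35.9, 36.03 and 39.1 FPKM in Ctrl-TAC libraries (log2 fold change -0.41 ± 0.13, unadjusted limma p 0.0132, adjusted limma p 0.251). Mafg, which pairs with NRF2 on DNA, was also lower in all 3 VNS-TAC libraries (-0.38 ± 0.12, unadjusted limma p 0.0147). Keap1, the inhibitor of NRF2, averaged 25.5 ± 1.21 FPKM in VNS-TAC and 22.8 ± 1.54 FPKM in Ctrl-TAC hearts (SD, n = 3 each; unadjusted limma p 0.221), and Maff, another small Maf factor, 14.8 ± 3.66 FPKM in VNS-TAC and 12.1 ± 2.22 FPKM in Ctrl-TAC hearts (SD, n = 3 each; unadjusted limma p 0.233).

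The partners and substrate pathways of single members had 10 of 14 genes tested, with 1 higher and 1 lower at an unadjusted p under 0.05 (3.79% and 11.3% of all genes) and a median of -0.05. Fah, the step after Gstz1 in tyrosine breakdown, had 12.8, 21.9 and 69.5 FPKM in VNS-TAC, against 9.65, 11.4 and 9.73 FPKM in Ctrl-TAC libraries (1.33 ± 0.53, unadjusted limma p 0.038), and Aldh1a1, an aldehyde dehydrogenase, averaged 7.5 ± 2.62 FPKM in VNS-TAC and 15.0 ± 5.0 FPKM in Ctrl-TAC hearts (SD, n = 3 each; -0.92 ± 0.30, unadjusted limma p 0.0165). Mapk9, which encodes a JNK, and Aldh3a2, which oxidises fatty aldehydes, were at 0.87 and 0.88 times the control mean (unadjusted limma p 0.155 and 0.216).

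Markers of several cell types also differed between the groups, and in bulk RNA fewer cells of a type and less RNA per cell cannot be told apart. The 5 neutrophil markers summed to 53.4, 44.7 and 97.7 FPKM in VNS-TAC, against 3.31, 4.01 and 0.86 FPKM in Ctrl-TAC libraries. All 4 tested markers were higher at an unadjusted limma p under 0.05, against 3.79% of all genes. Cardiomyocyte markers were abundant in every library, as the tissue label says: the 8 summed to 43673, 39649 and 36253 FPKM in VNS-TAC, against 34538, 34115 and 33473 FPKM in Ctrl-TAC libraries, and 0 of the 8 passed an unadjusted p under 0.05 in limma. These sums did not overlap, and 2 of the 8 markers were higher without overlap, against 8.01% of all genes. The sum hides opposite moves in VNS-TAC 3. Tnnt2 had 15154 FPKM there, against 7014 to 7657 FPKM in Ctrl-TAC, while Tnni3, Myh6, Myl2 and Ckm were below all 3 controls. Sums of the 7 fibroblast markers were 799 to 1166 FPKM in VNS-TAC and 1150 to 1156 FPKM in Ctrl-TAC, with 3 of 7 lower at an unadjusted p under 0.05, and those of the 6 endothelial markers were 259 to 327 FPKM in VNS-TAC and 323 to 365 FPKM in Ctrl-TAC, with 2 of 6 lower, where 11.3% of all genes were lower at that threshold. Macrophage markers summed to 151 to 292 FPKM in VNS-TAC and 234 to 260 FPKM in Ctrl-TAC, and smooth muscle and pericyte markers to 156 to 182 FPKM in VNS-TAC and 189 to 316 FPKM in Ctrl-TAC. Log2 fold changes were above 0 for 0 of 7 fibroblast, 1 of 6 endothelial and 0 of 6 macrophage markers. For smooth muscle and pericyte markers it was 0 of 6, where 38.2% of all genes were above 0. Markers lower without overlap numbered 2, 3, 1 and 2 in that order, against 17.4% of all genes. The summed atrial, red blood cell and adipocyte markers overlapped between the groups. All 4 adipocyte markers tested nevertheless had a log2 fold change under 0 (median -0.63). Of them, 1 was lower without overlap, against 17.4% of all genes. Hepatocyte markers, listed because liver is rich in these enzymes, were low, with sums over the 3 of 4 in the table of 0.87 to 1.37 FPKM in VNS-TAC and 0.07 to 0.38 FPKM in Ctrl-TAC, and skeletal muscle markers summed to at most 1.34 FPKM in VNS-TAC and 1.93 FPKM in Ctrl-TAC. The part of cell make-up in the members' differences was not tested.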

How the data were processed

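Values were analysed as deposited, in FPKM to 2 decimals for 18019 NCBI gene IDs, per the file headers. The submitters' processing notes name HISAT, featureCounts 1.5.0-p3, DESeq 1.8.3 and GRCm38 but no roles; the annotation, the strand setting and the treatment of reads with several matches are in none of the sources used here. Sample titles gave the groups, since the treatment tag reads VNS for controls too. VNS-TAC columns are numbered as in the table and could not be tied to single titles.

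RefSeq GRCm38.p6 gave symbols for 17890 IDs and GENCODE M21 for 16 more. Genes that averaged 1 FPKM or more were compared as log2(FPKM + 1), a scale that understates fold changes of low genes, with limma 3.58.1 in R 4.3.3 (intensity trend, 4 residual degrees of freedom, 2-sided) and Benjamini-Hochberg adjustment at 0.05. The procedure was run on simulated data with the same spread in both groups and shifts larger than any member's log2 fold change. That run does not cover the unequal spread of these groups. Python 3.11.15, pandas 2.3.3, numpy 2.4.6, Biopython 1.88 and matplotlib 3.10.9 were used. Promoters come from RefSeq (GRCm38.p6), coding sequences and positions from GENCODE M21 (GRCm38) principal transcripts, with the Gstm genes aligned by MAFFT.

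The members, the gene lists and the marker lists were chosen with earlier results of these data known. All members are named, with the 4 genes of smallest unadjusted p in each of the 5 other glutathione lists, a few core genes of the pathway, and the 5 genes most like Gstm1; 2 genes that this rule takes are not reported here. Alternatives were other pseudocounts and filters, rescaling by size factors, by quantiles or to the same sum, removal of the GC or length trend, limma without the trend, robust or with library weights, and the omission of any 1 library.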

Additional observations from a re-analysis of the deposited data

How the results depend on the processing

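Over 18 alternatives, all 180 member fold changes kept their direction. The other filters, limma without the trend and robust limma leave a member's fold change itself unchanged. Those settings could therefore not reverse it, and only its p-value could move. The log2 fold change was 0.49 to 0.84 for Gstm1, 0.42 to 0.62 for Gstm2, 0.25 (library weights) to 0.67 (without VNS-TAC 2) for Gstm7, 0.43 to 0.58 for Gstk1, 0.32 to 0.60 for Gsta4 and -0.43 to -0.05 for Gstt1. Gstm1, Gstm2, Gstm7 and Gstk1 had an unadjusted limma p under 0.05 in all 18, and Gsta4 in 11, missing it with quantile or same-sum scaling, with the length trend removed, and without VNS-TAC 2, VNS-TAC 3, Ctrl-TAC 1 or Ctrl-TAC 2. Members past the adjusted threshold numbered 4 with library weights, against 0 otherwise. Genes past it numbered 1016 with library weights, 1 where genes had to average 5 FPKM, 2 with size factors, 2 with quantile normalization, 2 with the GC trend removed, and 0 to 3 with a library left out. At an unadjusted p under 0.05 there were 3441 genes with library weights and 766 to 2515 with a library left out, against 1719. The other glutathione lists had 26 such genes with library weights and 4 to 22 with a library left out, against 17: 4 without Ctrl-TAC 1, 8 without Ctrl-TAC 2, 7 without Ctrl-TAC 3. The cause of these moves was not tested, beyond the fewer libraries or other weights. Rescaling to the same sum moved the median of all genes to -0.15, from -0.08. No paired analysis was possible because the VNS-TAC columns could not be tied to the numbers in the titles. Depth limits Gstm4 and Gstt1 most, at about 200 and 220 estimated fragments in their lowest library.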
